A study of Mus musculus with 12 samples.

Results

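The genes described here encode the oxidative phosphorylation machinery of the inner mitochondrial membrane, from both the nuclear and the mitochondrial genome. Members were protein-coding genes whose symbol begins with Ndufa, Ndufb, Ndufc, Ndufs, Ndufv, Uqcr, Cox4 to Cox8, Atp5 or mt-, or is Sdha, Sdhb, Sdhc or Sdhd, with a mean of at least 1 CPM (the expected count scaled to the library's total) over the 12 libraries. The symbols matched 106 genes and 102 passed the minimum, 89 nuclear and 13 mitochondrial. These 102 are among 16493 genes tested and 38924 genes in the deposited tables. The symbol rule and the CPM minimum use no difference between groups, although the set was proposed with earlier results of these data known.

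The samples were whole brains of 6-week-old mice, with 3 libraries for each of 4 genotypes, profiled by sequencing of polyadenylated RNA. Wild type (WT) and Rorbh1/h1 (h1) mice were on C57BL/6J, whereas the background of Rorbh2/h2 mice (h2) was B6(Cg)-Tyrc-2J/J and that of Rorbh4/h4 mice (h4) B6.129S7-Il1r1tm1Imx/J. Rorb encodes an orphan nuclear receptor, and the alleles belong to the high stepper series, in which gait is abnormal. The background strains of h2 and h4 also carry a Tyr and an Il1r1 allele, so allele and background cannot be told apart for those genotypes.

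Oxidative phosphorylation couples electron transport to ATP synthesis. Complex I (NADH dehydrogenase) and complex II (succinate dehydrogenase) pass electrons through ubiquinone to complex III, cytochrome c and complex IV (cytochrome c oxidase), and the proton gradient built by complexes I, III and IV drives complex V (ATP synthase). Complex II is encoded in the nucleus alone, whereas each of the other complexes joins nuclear subunits with subunits encoded in mitochondrial DNA. Neurons depend heavily on the ATP they supply.

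The libraries held 14513819 to 24694165 expected counts. Rorb measured 16.3 to 18.4 CPM for WT, 22.6 to 33.1 for h1, 22.6 to 31.1 for h2 and 8.65 to 9.11 for h4, so the libraries labelled h4 were all below WT. Xist was high (783 to 915 CPM) in all 3 WT libraries, h1 replicate 1, h2 replicate 2 and h4 replicates 1 and 3. It was low (at most 1.36 CPM) in the other 5, so the genotypes differ in their mix of high- and low-Xist mice. Ddx3y, a gene of the Y chromosome, measured 96.1 to 104.1 CPM in those 5 libraries and at most 0.149 CPM in the rest. By Xist and Ddx3y, all WT mice read as female, whereas each mutant group held females and males. The neuronal marker sum (5 genes) was 4220 to 4350 CPM for WT and 4210 to 4440 in the mutants, with no marker called against WT, which fits the labelled tissue. Fewer cells of a type and less RNA per cell cannot be told apart in bulk tissue.

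Nuclear respiratory genes are known as targets of the factors NRF1, GABP (an ETS protein) and YY1, and their promoters show what many of the nuclear members share in sequence. RefSeq promoter windows of GRCm38.p6, from 250 bases before to 50 after the start, were found for 71 of the 89 nuclear members. The NRF1 motif, read as GCGCA, then any base, then GCGC on either strand, occurred in 18 of these 71 genes (25.4%), against 10.3% of 11613 protein-coding genes tested and 5.19% of 27025 genes with a window. The ETS letters CCGGAAG, whose reverse strand reads CTTCCGG, occurred in 25.4% of the members, 17.7% of the protein-coding genes tested and 9.93% of all genes. The YY1 letters AAGATGG occurred in 15.5%, 7.80% and 7.28%. At least 1 of the 3 motifs was found in 40 of 71 members (56.3%), against 31.1% and 20.0%, while the median GC content of the windows was 58.0% for the members and 60.3% for the protein-coding genes tested. All motifs were searched on both strands, none lies within another, and a match describes the sequence only.

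One stretch per complex, upstream of the start of its RefSeq window, is shown as an example of a match. It reads 5′ to 3′ on the gene's own strand, which is the minus strand in each case. By the gene limits of GENCODE M21, the stretches of Ndufs6, Sdha and Atp5c1 lie inside the gene, and that of Cox6a1 nearly so. Atp5c1 has another RefSeq window, which holds no match. Capitals mark the motif: NRF1 in Ndufs6, Sdha and Atp5c1, and ETS in Uqcrh and Cox6a1.
Ndufs6 (complex I, chr13:73328483-73328506): actgctgtGCGCCTGCGCcggcac
Sdha (complex II, chr13:74350241-74350258): gactcggtGCGCAAGCGC
Uqcrh (complex III, chr4:116075071-116075088): atgccgcaCTTCCGGcca
Cox6a1 (complex IV, chr5:115348960-115348982): catttccgCTTCCGGcgcgccgg
Atp5c1 (complex V, chr2:10080433-10080457): gagctcccGCGCACGCGCactgagt

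By TPM, mitochondrial members were the most abundant transcripts of the group. On the length-corrected TPM scale, their means over the 12 libraries ran from 4653 for mt-Nd6 to 44630 for mt-Atp8, with a median of 12490. The TPM of mt-Atp8, the shortest member at 204 bases, leans on the length correction. It had 529.8 CPM, against 20660 CPM and 28950 TPM for mt-Co1 (1545 bases), so its first rank by TPM is uncertain. By CPM, mt-Atp8, mt-Nd4l (353.5), mt-Nd6 (769.2) and mt-Nd3 (844.1) all lay below the nuclear member Atp5b (1106). Nuclear members ran from 3.57 to 1234 TPM with a median of 227, against a median of 18.6 TPM for the 14872 protein-coding genes tested. The members have short transcripts, with a median of 918 bases for the nuclear and 784 for the mitochondrial set, against 3200 for protein-coding genes tested. GC content was 50.5% in the nuclear and 37.1% in the mitochondrial set.

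Among nuclear members the most abundant was Atp5b, the catalytic beta subunit of ATP synthase, at 1234 TPM. Ndufa4, first assigned to complex I and known to sit with complex IV, followed at 1054 TPM, and then Cox4i1 at 1046 and Cox6c at 974, both structural subunits of complex IV. Ndufb9, an accessory subunit, was next after Ndufa4 among complex I symbols, at 487 TPM. Uqcrh, the hinge protein, led complex III at 652 TPM, and the small subunit Uqcr10 followed at 383. In complex II the flavoprotein Sdha stood at 300 TPM and the iron-sulphur protein Sdhb at 194. Atp5g3, 1 of the genes of the proton-carrying c ring, reached 743 TPM.

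**Figure D1:**
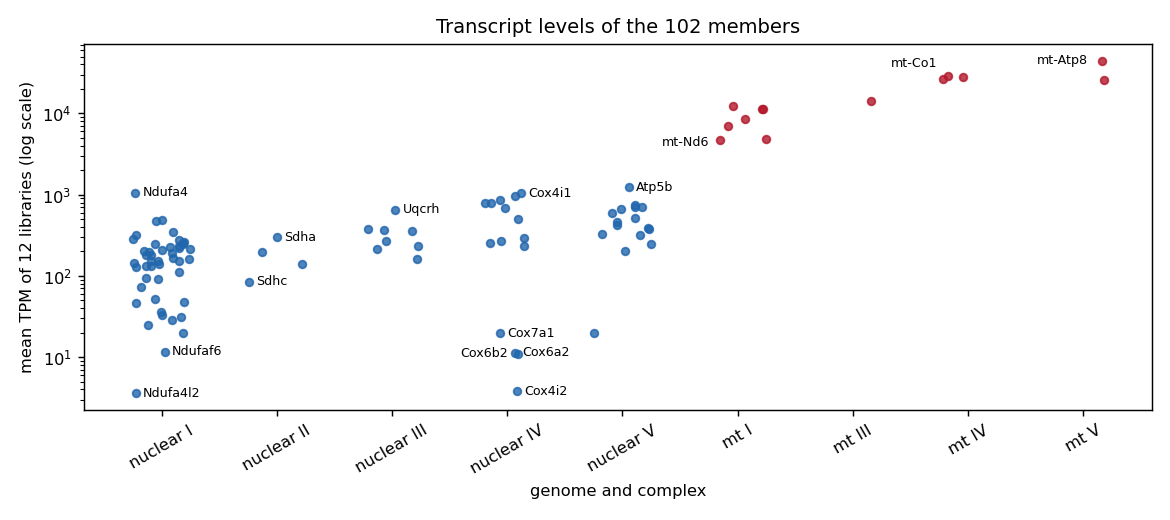
Mean TPM over the 12 libraries (log scale) of each of the 102 members, grouped by genome and complex, blue for nuclear and red for mitochondrial genes, with points spread sideways for legibility. Each mitochondrial gene lies above every nuclear member, and the restricted isoforms lie between 3.57 (Ndufa4l2) and 19.6 TPM (Cox7a1), far under their common partners.

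Paralogous subunits differed in level by large factors. Cox4i1 stood at 1046 TPM and its hypoxia-linked partner Cox4i2 at 3.80. The common Cox6a1 stood at 796 TPM and the heart and muscle isoform Cox6a2 at 11.3. Cox6b1 was at 779 TPM and the testis isoform Cox6b2 at 11.1. Cox7a2 was at 291 TPM, Cox7a2l, which encodes a supercomplex assembly factor, at 251, and the muscle isoform Cox7a1 at 19.6. Ndufa4l2, a hypoxia-induced relative of Ndufa4, was at 3.57 TPM. Cox8a reached 860 TPM, and the muscle isoform Cox8b 3.53. Each common form thus exceeded its restricted partner. Atp5g1, at 323 TPM, was lower than Atp5g3. The testis isoform Cox8c was listed at 0 in all 12 libraries.

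The minimum of 1 CPM separated Cox4i2 (1.05 CPM) and Ndufa4l2 (1.43), just inside, from Cox8b (0.292) and Cox7b2 (0.207), just outside. Some values are uncertain. The estimated count of mt-Nd4l, a complex I subunit, equalled that of its nuclear pseudogene Gm10222 in every library (mean 353.5 CPM each), so the level of either is uncertain. Atp5g2, the remaining c-ring gene and known to be broadly expressed, was listed at 0 in all 12 libraries, which can be a failed estimate and is not read as absence. Ndufb4 (17.9 CPM) has a processed pseudogene, Ndufb4c (29.0 CPM), that can take its reads. On the mitochondrial map mt-Atp8 (204 bases) overlaps mt-Atp6 by 43 bases and mt-Nd6 overlaps mt-Nd5 by 14 on the opposite strand, and the library kit does not mark strand.

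Each mutant was compared with WT for the level of this machinery. In h2 and h4 such a difference joins the Rorb allele with the background strain, and all WT libraries were high in Xist. In h1, 0 of 102 members were called at an adjusted p under 0.05 (edgeR's quasi-likelihood test, Benjamini-Hochberg over all genes tested), where 0.625% of all genes tested were called. In h2, 0 of 102 were called, against 0.679% of all genes. In h4, 3 of 102 members (2.94%) were called, against 4.55% of all genes: mt-Atp6 and mt-Cytb rose and Cox6a2 fell. With 102 members these counts are too small to set the members apart from all genes, and they changed between settings, from 0 to 2 calls in h2 and from 0 to 6 in h4. At an unadjusted p under 0.05 there were 2 of 102 members in h1, where 9.82% of all genes passed, 7 in h2, where 11.5% did, and 19 in h4, where 17.6% did. DESeq2 called 0 members in h1 and 1, mt-Nd2, in h2, and limma on log2(TPM + 1) called 0 in both. In h4, DESeq2 called 3 members, mt-Nd2, mt-Atp6 and mt-Cytb, and limma 3, Cox6a2, Atp5j2 and mt-Atp6, so mt-Atp6 was the member called by all 3 tools.

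The mitochondrial members together took 6.81, 6.78 and 7.20% of the counts in WT libraries 1 to 3, 6.98, 7.09 and 7.24% for h1, 7.59, 7.19 and 7.04% for h2, and 7.49, 7.65 and 7.24% for h4. The means were 6.93 ± 0.234% for WT, 7.10 ± 0.132% for h1, 7.27 ± 0.286% for h2 and 7.46 ± 0.204% for h4 (SD, n = 3). WT replicate 3 stood above the other WT libraries and overlapped h1 and h2, and h4 replicate 3 (7.24%) exceeded it by a narrow margin. After TMM scaling, which corrects library totals for composition, the order of those 2 libraries changed (7.20% for WT replicate 3 and 7.16% for h4 replicate 3), so the groups then overlapped.

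The nuclear members took 0.880, 0.893 and 0.914% for WT, 0.904, 0.899 and 0.918% for h1, 0.947, 0.873 and 0.901% for h2, and 0.901, 0.920 and 0.910% for h4. Their means of 0.896 ± 0.0175, 0.907 ± 0.00944, 0.907 ± 0.0374 and 0.910 ± 0.00927% (SD, n = 3) lay within the spread of WT. The h2 libraries had the widest range, and the highest of them, replicate 1, was also the shallowest library. The ratio of mitochondrial to nuclear counts was 7.74 ± 0.142 for WT, 7.83 ± 0.0973 for h1, 8.02 ± 0.210 for h2 and 8.19 ± 0.206 for h4. On the deposited TPM scale the mitochondrial sum was 222500 ± 5950 for WT and 226900 ± 3050 for h1. It was 228900 ± 8710 for h2 and 233900 ± 5130 for h4. The WT and h4 libraries overlapped on that scale, with 229200 for WT replicate 3 and 228400 for h4 replicate 3. The nuclear sum was 26530 ± 503 for WT and 26610 ± 195 for h4.

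**Figure D2:**
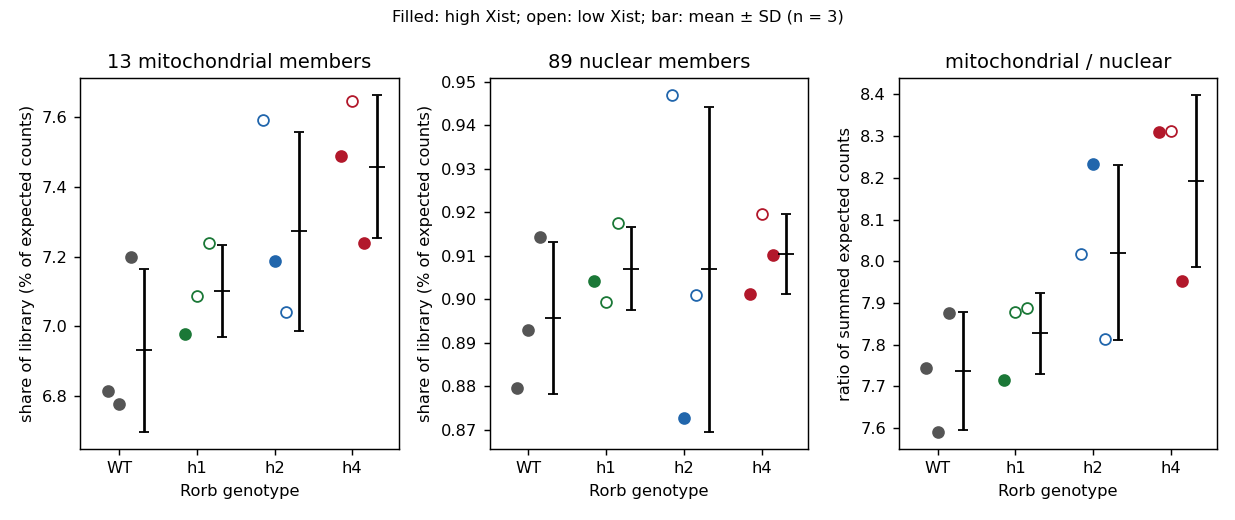
Share of each library's expected counts taken by the 13 mitochondrial members (left) and the 89 nuclear members (middle), and the ratio of the sums (right), by Rorb genotype, with 1 point per library, filled for high and open for low Xist, and bars for mean ± SD (n = 3); the vertical axes do not start at 0. The mitochondrial share has its lowest mean in WT (6.93%) and its highest in h4 (7.46%), while the nuclear shares of the 4 genotypes overlap.

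The mix of high- and low-Xist libraries differed between the groups compared. Among high-Xist libraries the share was 6.78 to 7.20% for WT (3 libraries), 6.98% for h1 (1), 7.19% for h2 (1) and 7.24 to 7.49% for h4 (2), and among low-Xist libraries it was 7.09 to 7.24% for h1 (2), 7.04 to 7.59% for h2 (2) and 7.65% for h4 (1). All WT libraries were high in Xist, so no low-Xist library of WT could be compared. With Xist as a covariate the median log2 fold change of the mitochondrial members was 0.015 for h1, 0.036 for h2 and 0.088 for h4, against 0.050, 0.082 and 0.100 without it.

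All 13 mitochondrial genes had a log2 fold change above 0 in each of h1, h2 and h4 against WT, where 50.2, 51.3 and 53.2% of all genes tested did. They are cut from shared precursor transcripts, come from the same libraries, and all 3 comparisons use the same WT libraries, so these are not independent observations. The medians correspond to folds of 1.035, 1.059 and 1.072, against medians of 0.000, 0.003 and 0.009 on the log2 scale for all genes. Libraries of the groups did not overlap for 1 of 13 genes in h1, 3 in h2 and 6 in h4, all of them higher in the mutant, where 7.39, 7.69 and 10.8% of all genes were non-overlapping and higher.

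In the order of the mitochondrial map, complex I genes mt-Nd1 and mt-Nd2, which encode membrane-arm core subunits, had log2 fold changes of 0.09 and 0.13 for h1, 0.11 and 0.16 for h2, and 0.10 and 0.13 for h4. By library, mt-Nd2 measured 3402, 3328 and 3694 CPM for WT, 3698, 3799 and 3866 for h1, 4130, 3847 and 3684 for h2, and 3840, 3893 and 3763 for h4. WT replicate 3 lay just below the lowest h1 library and above h2 replicate 3. The edgeR adjusted p of mt-Nd2 was 0.292 for h1, 0.147 for h2 and 0.128 for h4, so it did not pass in any mutant. In h4 it passed in 6 of 20 alternative settings, among them without WT replicate 3 (adjusted p = 0.0186) and with DESeq2 (adjusted p = 0.0417). The other complex I genes of the plus strand, mt-Nd3, mt-Nd4l, mt-Nd4 and mt-Nd5, had log2 fold changes of 0.11, 0.07, 0.10 and 0.09 for h4, and mt-Nd6, alone on the minus strand, of 0.14 (adjusted p = 0.284).

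mt-Cytb, the cytochrome b core of complex III and its sole mitochondrial subunit, spans chrM:14145-15288 on the plus strand of GRCm38. It measured 6635, 6713 and 7006 CPM for WT, 6791, 6968 and 7076 for h1, 7359, 7010 and 6843 for h2, and 7275, 7513 and 7230 for h4. Every h4 library was above every WT and h1 library, while h2 spanned the gap. It rose in h4 by 0.11 log2 units (SE 0.0280, edgeR adjusted p = 0.0314). The call was lost in 9 of 20 alternative settings, among them without WT replicate 1 or 2 or h4 replicate 1 or 2 and with Xist as a covariate (adjusted p = 0.139), at log2 fold changes of 0.08 to 0.12 over all settings.

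The complex IV genes mt-Co1, mt-Co2 and mt-Co3, which encode the catalytic core, had log2 fold changes of 0.07, 0.08 and 0.12 for h4. mt-Co3 measured 7676, 7662 and 8093 CPM for WT, 7794, 8125 and 8307 for h1, 8825, 7988 and 8012 for h2, and 8553, 8725 and 8341 for h4. All h4 libraries of mt-Co3 were above WT, with an adjusted p of 0.149 that missed the threshold and passed it in 3 of 20 alternative settings, at the lowest without h2 replicate 1 (adjusted p = 0.00986). mt-Co1, the most counted transcript of the set, measured 20180 ± 809 CPM for WT and 21380 ± 775 for h4 (SD, n = 3), with overlapping libraries.

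Of the complex V genes, mt-Atp6 encodes the Fo subunit a, which forms the proton channel with the c ring, and lies at chrM:7927-8607 on the plus strand. Its level was 6132, 6016 and 6325 CPM for WT, 6331, 6169 and 6449 for h1, 6679, 6507 and 6373 for h2, and 6671, 6856 and 6740 for h4. The h2 and h4 libraries were all above WT, and h4 was also above h1. mt-Atp6 rose in h4 by 0.13 log2 units (SE 0.0249, edgeR adjusted p = 0.00336), whereas in h2 it was 0.08 (adjusted p = 0.138) and in h1 0.05 (adjusted p = 0.561). The difference between h4 and h2 was 0.04 (adjusted p = 0.398). The h4 call was lost in 1 of 20 settings, with high-Xist libraries alone (0.10 log2 units, adjusted p = 0.105), where h1 and h2 have 1 library each.

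mt-Atp8 encodes a small Fo subunit and shares a transcript with mt-Atp6. Its log2 fold changes were 0.16 for h1, 0.14 for h2 and 0.06 for h4, with an SE of 0.0960 for h4, and its h4 libraries measured 487, 583 and 492 CPM against 481, 528 and 483 for WT. Its direction in h4 turned without h4 replicate 2 (-0.04) and with the Xist covariate (-0.02). Its reads are shared with mt-Atp6 where the genes overlap.

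**Figure D3:**
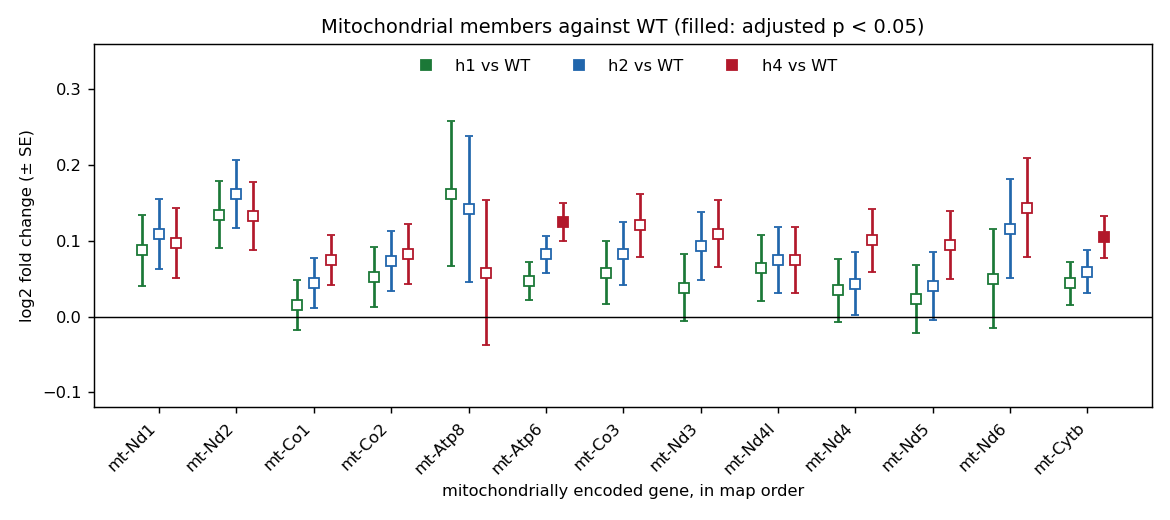
Log2 fold change against WT (± SE) of each of the 13 mitochondrial genes in map order, in h1 (green), h2 (blue) and h4 (red), with filled squares for an edgeR adjusted p under 0.05. Every estimate lies above 0, and only mt-Atp6 and mt-Cytb in h4 are filled.

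The mitochondrial ribosomal RNAs lie on the plus strand, as do all mitochondrial members except mt-Nd6, and are no members. They were counted here in libraries of polyadenylated RNA. mt-Rnr1 had log2 fold changes of -0.05, -0.14 and 0.03 for h1, h2 and h4, and mt-Rnr2 of -0.01, -0.09 and 0.01. Neither was called in any of these comparisons. In h2 both had all libraries below WT, as had 7.90% of all genes tested, opposite in sign to the 13 messenger RNAs.

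The nuclear members had small differences, more often above 0 than below. Their median log2 fold change was 0.030 for h1, 0.015 for h2 and 0.030 for h4, with interquartile ranges of 0.008 to 0.057, -0.015 to 0.045 and -0.007 to 0.068. Differences were above 0 for 73 of 89 in h1 (82.0%), 58 in h2 (65.2%) and 64 in h4 (71.9%). All genes gave the 50.2, 51.3 and 53.2% stated above. Of the lists described below, tricarboxylic acid cycle genes gave 82.4% in h1, 64.7% in h2 and 52.9% in h4. Cytosolic ribosomal proteins gave 67.6, 64.9 and 59.5%. Genes of mitochondrial DNA maintenance, transcription and RNA handling gave 45.8, 37.5 and 54.2%. Such shares in h1 and h2 thus also occurred outside the nuclear members. The nuclear members share libraries and every comparison shares WT, so these are not independent observations. With Xist as a covariate the medians were 0.000, -0.018 and 0.013, so the direction in h2 turned, as it also did with high-Xist libraries alone (-0.035), without h2 replicate 1 (-0.022) and with limma (-0.005), and limma gave -0.001 for h1. Groups did not overlap for 8 higher and 1 lower nuclear members in h1, 4 and 1 for h2, and 12 and 5 for h4. Over all 102 members these counts were 9 and 1 for h1, 7 and 1 for h2, and 18 and 5 for h4. In h4 the 18 higher members are 17.6%, where all genes gave 10.8%, and the 5 lower are 4.90%, where all genes gave 10.4%. In h1 the 9 higher members are 8.82% against 7.39%, and the 1 lower 0.98% against 7.11%. In h2 the 7 higher are 6.86% against 7.69%, and the 1 lower 0.98% against 7.90%.

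The members varied little between mice of a genotype. The median within-group SD of log2 CPM was 0.0661 for nuclear and 0.0633 for mitochondrial members, against 0.0901 for all genes tested and 0.0644 for 7909 genes in the same range of CPM. The nuclear members thus varied about as much as other genes of their abundance.

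By complex, the nuclear medians in h4 were 0.027 for complex I (46 genes), 0.062 for II (4), 0.028 for III (8), 0.018 for IV (15) and 0.034 for V (16), and no complex had a nuclear median above 0.042 for h1 or 0.027 for h2. In the complexes with both genomes the mitochondrial medians in h4 were 0.100 for complex I (7 genes), 0.105 for III (1), 0.082 for IV (3) and 0.092 for V (2). The mitochondrial median exceeded the nuclear one in each shared complex and each mutant.

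**Figure D4:**
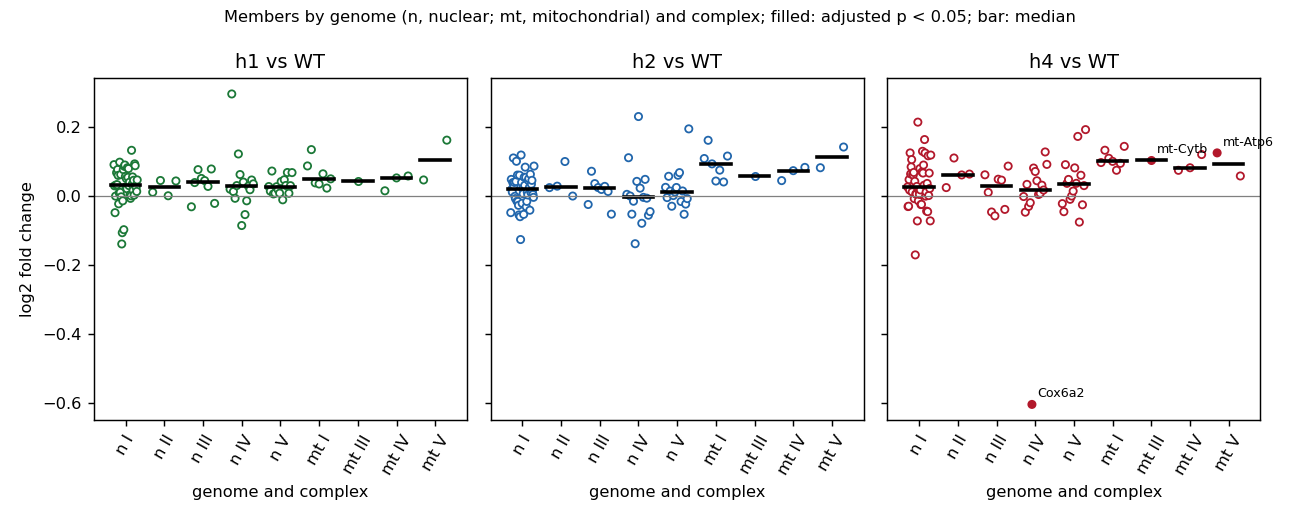
Log2 fold change against WT of each member by genome and complex in h1, h2 and h4, with a black bar at the median of each set and filled points for an edgeR adjusted p under 0.05. Nuclear medians lie between -0.004 and 0.062, mitochondrial medians between 0.044 and 0.112, and Cox6a2 stands apart in h4 at -0.60.

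In complex I, the accessory membrane-arm subunit Ndufc1 measured 27.0, 27.2 and 27.7 CPM for WT and 30.2, 32.6 and 29.6 for h4, without overlap. In h4 it was higher by 0.16 log2 units (SE 0.0654, adjusted p = 0.171), and the difference was 0.00 for h1 and h2. Its partner Ndufc2 measured 47.9, 49.4 and 48.2 CPM for WT, 51.1, 53.8 and 53.5 for h1 and 50.9, 55.3 and 53.6 for h4, with adjusted p of 0.285 for h1 and 0.153 for h4. Both missed the threshold, and so did the other 44 nuclear complex I symbols.

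Those symbols include 8 assembly factors, Ndufaf1 to Ndufaf8, which build complex I without remaining in it. Ndufaf1, an early-acting factor, stood at 19.2 ± 0.515 CPM for WT, 17.3 ± 0.293 for h1, 19.0 ± 1.60 for h2 and 17.2 ± 0.781 for h4 (SD, n = 3). Its libraries lay below WT in h1 and h4, with log2 fold changes of -0.14 (adjusted p = 0.549) and -0.17 (0.212). Ndufaf6 had 0.21 for h4 (adjusted p = 0.442) at 4.24 CPM. Atp5s, a coupling factor that carries the ATP synthase symbol and is no subunit of it, had 0.19 in both h2 and h4 (adjusted p = 0.367 and 0.231). Without these 9 genes the nuclear medians were 0.030, 0.015 and 0.033.

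In complex II, Sdhb measured 92.1, 91.4 and 97.2 CPM for WT and 103.5, 102.2 and 99.1 for h4, a difference of 0.11 log2 units (SE 0.0384, adjusted p = 0.105). WT replicate 3 was again the highest WT library. Sdhc, a membrane anchor, measured 71.6, 72.0 and 74.0 CPM for WT and 78.4, 76.6 and 78.3 for h2, a difference of 0.10 (SE 0.0390, adjusted p = 0.301). Both sets of libraries were separate from WT and neither gene passed.

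In complex III, the small subunit Uqcrq measured 43.2, 46.0 and 45.1 CPM for WT and 47.1, 48.0 and 48.4 for h4, a difference of 0.09 log2 units (adjusted p = 0.369). Uqcrh measured 110.4, 116.8 and 124.0 CPM for WT and 119.4, 125.1 and 123.5 for h1, which overlapped (0.08, adjusted p = 0.587). Cyc1, the cytochrome c1 subunit that the symbol rule leaves out, was at 111 ± 1.53 CPM for WT and 114 ± 4.84 for h4.

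In complex IV, Cox6a2 (chr7:128205435-128206387, minus strand, GRCm38) was the sole nuclear member called in a comparison with WT. It encodes the heart and muscle form of subunit VIa and is known in the brain from parvalbumin interneurons. It measured 3.13, 2.98 and 2.83 CPM for WT, 2.95, 3.71 and 3.00 for h1, 2.34, 2.79 and 2.89 for h2, and 1.87, 2.12 and 1.92 for h4. The 3 h4 libraries lay below all 9 others. Cox6a2 fell in h4 against WT by 0.60 on the log2 scale (SE 0.172, edgeR adjusted p = 0.0404), and h4 was below h1 by 0.73 (SE 0.169, adjusted p = 0.0120). Against h2 the log2 fold change was -0.47 (adjusted p = 0.151).

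The level of Cox6a2 rests on few reads, and its call against WT was lost in 7 of 20 settings, without WT replicate 1 or 2 or any single h4 replicate, with 2 groups alone and with high-Xist libraries alone (adjusted p of at most 0.151), at log2 fold changes of -0.67 to -0.57. The call against h1 was lost without h1 replicate 2 or h4 replicate 1 (adjusted p = 0.0768 and 0.0615) and with high-Xist libraries alone. DESeq2 gave it no adjusted p. The sum of the 2 parvalbumin interneuron markers was 356 to 369 CPM for WT and 350 to 376 for h4, with Pvalb at a log2 fold change of 0.12 (adjusted p = 0.229) and Kcnc1 at -0.09 (0.205). The sum of 3 skeletal muscle markers was 3.92 to 4.70 CPM for WT and 3.40 to 4.06 for h4, with Ckm at most 0.109 CPM for WT and h4 and Myh4 at most 0.280, and Acta1 at 3.62 to 4.39 CPM for WT and 3.28 to 3.95 for h4.

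Cox6a1, the common partner, had a log2 fold change of -0.02 for h4. Cox4i2 was at 0.987 ± 0.256 CPM for WT and 0.960 ± 0.160 for h4, Cox7a1 at 1.68 ± 0.121 and 1.70 ± 0.298, and Cox6b2 at 1.60 ± 0.146 and 1.69 ± 0.472 (SD, n = 3), each with overlapping libraries. Cox8a, the common form of the smallest subunit, measured 141.7, 158.9 and 154.9 CPM for WT and 153.3, 167.5 and 167.5 for h4 (0.09, adjusted p = 0.287). Cox4i1 had a log2 fold change of 0.00 for h4 and Cox6c of 0.04.

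In complex V, Atp5j2 (chr5:145183698-145192062, minus strand) encodes subunit f of the membrane part Fo. It measured 58.1, 60.3 and 65.2 CPM for WT, 61.1, 60.2 and 66.7 for h1, 63.8, 57.2 and 61.1 for h2, and 70.5, 70.6 and 66.9 for h4. The h4 libraries lay above all WT and h2 libraries, and the lowest of them, replicate 3, was level with h1 replicate 3. Atp5j2 was higher in h4 than in h2 by 0.19 log2 units (SE 0.0521, edgeR adjusted p = 0.0426). Against WT it was 0.17 (SE 0.0519, adjusted p = 0.0535), which just missed the threshold and passed in 6 of 21 alternative settings. The call against h2 was lost without h2 replicate 2 or 3 or h4 replicate 1 or 2 and with high-Xist libraries alone, at adjusted p of up to 0.219.

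Atp5c1, the gamma subunit that forms the rotating stalk, measured 185.7, 189.9 and 195.4 CPM for WT and 207.3, 206.4 and 198.0 for h4, a difference of 0.09 log2 units (adjusted p = 0.165). Atp5b, the most abundant nuclear member, was at -0.05 log2 units for h4 (adjusted p = 0.471). Its libraries measured 1114, 1115 and 1111 CPM for WT and 1071, 1070 and 1116 for h4. On this scale h4 replicate 3 reached WT. After TMM scaling all h4 libraries of Atp5b lay below WT, as did those of Atp5a1 (-0.02 log2 units, adjusted p = 0.775). Atp5g3 and Atp5g1 had 0.01 and 0.00.

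**Figure D5:**
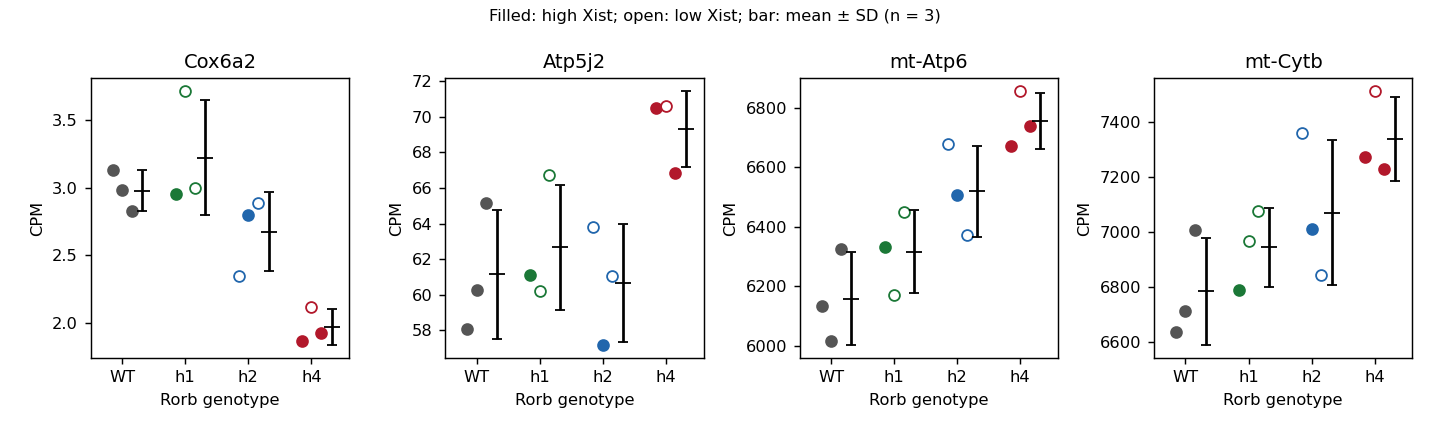
CPM of the 4 members called in any comparison, by Rorb genotype, with 1 point per library, filled for high and open for low Xist, and bars for mean ± SD (n = 3); the vertical axes do not start at 0. The h4 libraries of Cox6a2 lie between 1.87 and 2.12 CPM, below every other library, and those of mt-Atp6 lie between 6671 and 6856 CPM, above every WT library.

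Comparisons between mutants gave few differences. Between h2 and h1, 0 of 102 members were called (all genes 0.722%), with 2 at an unadjusted p under 0.05 (all genes 9.49%) and 0 by DESeq2 or limma. Between h4 and h1 the 1 call was Cox6a2 (all genes 4.64%), and between h4 and h2 the 1 call was Atp5j2 (all genes 3.22%). The median of the mitochondrial members was 0.022 for h2 against h1, 0.061 for h4 against h1 and 0.028 for h4 against h2, and that of the nuclear members -0.016, 0.006 and 0.019. None of the 13 mitochondrial genes was called between mutants, with non-overlapping libraries for 0, 2 and 0 of them, all higher, against 7.57, 11.8 and 10.8% of all genes.

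Genes around the machinery were read from lists chosen for their function. No member of any list was called in h1 or h2 against WT, or between h2 and h1, where 0.625, 0.679 and 0.722% of all genes were called. For h4 the shares of all genes called were 4.55% against WT, 4.64% against h1 and 3.22% against h2. The few or absent calls of each list below were not tested against these shares. Among 10 regulators of mitochondrial biogenesis, Ppargc1a, which encodes the coactivator PGC-1alpha, rose in h4 (57.1 ± 0.616 CPM for WT and 65.7 ± 3.57 for h4, SD, n = 3) by 0.19 log2 units (SE 0.0452, adjusted p = 0.0126). The median of that list in h4 was -0.003, and Esrrg, the next most abundant member, had -0.08. Among 17 genes of the tricarboxylic acid cycle, Suclg2, a subunit of succinyl-CoA ligase, rose in h4 by 0.23 (adjusted p = 0.0373) and was 0.35 above h1 (adjusted p = 0.00195), while Mdh1, the cytosolic malate dehydrogenase, stood lower in h4 than in h1 (-0.12, adjusted p = 0.0461).

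Of 38 assembly factors tested outside the symbol rule, Ttc19, which acts on complex III, was lower in h4 than in h1 and h2, with log2 fold changes of -0.16 and -0.15 (adjusted p = 0.0153 and 0.0283), and Coa5, of complex IV, was higher in h4 than in h1 by 0.15 (adjusted p = 0.0292). Of 77 mitochondrial ribosomal proteins, Mrpl50 was lower in h4 than in h1 (-0.21, adjusted p = 0.0389) and h2 (-0.23, adjusted p = 0.0304), and Mrpl35 lower than in h2 (-0.21, adjusted p = 0.0402). The 24 genes of mitochondrial DNA maintenance, transcription and RNA handling, led by Grsf1 (96.2 CPM) and Lrpprc (92.9 CPM), had 0 calls in every comparison and a median of 0.009 for h4. The 13 carriers and shuttles, led by the creatine kinase Ckb (1010 CPM) and the ATP/ADP carrier Slc25a4 (511 CPM), had 0 calls and a median of 0.023. The 16 glycolytic genes, led by Gapdh (1388 CPM) and Pkm (1175 CPM), had 0 calls and a median of 0.003. The 74 cytosolic ribosomal proteins, led by Rpl3 (418 CPM) and Rpl4 (387 CPM), had 0 calls and a median of 0.011. The nuclear oxidative phosphorylation median of 0.030 for h4 was no higher than that of the assembly factors (0.030), and the mitochondrial median of 0.100 was above each of them.

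Cell type markers moved in part with the genotypes. The oligodendrocyte marker sum (5 genes) was 8250 to 9410 CPM for WT and 10700 to 10900 for h1. It was 9240 to 10100 for h2 and 9270 to 10000 for h4. Against WT, 4 of 5 were called in h1, 1 in h2 and 0 in h4. Between h4 and h1, 4 of 5 were called, all lower in h4, such as Mbp (log2 fold change -0.22, adjusted p = 0.00365). Of 5 astrocyte markers, Gja1, Aldh1l1 and Gfap rose in h4 by log2 fold changes of 0.14, 0.28 and 0.38 (adjusted p = 0.0278, 0.00123 and 0.00172), while Slc1a2, the most abundant of them, was at -0.14 against WT (adjusted p = 0.182) and was lower in h4 than for h1 (-0.24, adjusted p = 0.0279), and Aqp4 was at 0.21 against WT (adjusted p = 0.323). The sum of the 5 was 3510 to 3640 CPM for WT and 3450 to 3590 for h4. Of 4 endothelial markers, 2 fell in h1, and Cldn5 was also called between each pair of mutants. The neuronal marker Syt1 was lower in h4 than in h1 and h2 (-0.14 in both, adjusted p = 0.0124 and 0.0189). Gfap was higher in h4 than in h2 (0.26, adjusted p = 0.0274). Of 3 choroid plexus markers, 1 was called in h2 and 1 in h4, and no microglial, blood or cerebellar granule cell marker was called against WT. Their part in the mitochondrial and nuclear values was not tested.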

How the data were processed

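RNA of 12 whole mouse brains was profiled with a poly(A), non-stranded kit as 100 bp pairs, per the labels' protocols. The authors deposited RSEM gene tables with expected counts (estimated read pairs, shared between genes they match, so not always whole) and TPM, normalised to length and library. Per the submitters' processing notes, Bowtie2 2.2.0 and RSEM 1.2.12 were used. Their genome build and annotation are not given in sources used here. Identifiers were matched to GENCODE M21 (GRCm38), which has 37607 of 38924, for symbols and positions.

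Expected counts were rounded and tested with edgeR 4.0.16 (quasi-likelihood, robust, TMM factors 0.991 to 1.012) in R 4.3.3, in 1 model of all 12 libraries, after its low-count filter left 16493 genes. Calls needed an adjusted p (Benjamini-Hochberg) under 0.05, and edgeR gave every adjusted p with no other tool beside it. Non-overlap was read on TMM-scaled CPM, whereas printed CPM are expected counts scaled to plain library totals. With 3 mice per genotype, p-values measure the spread between mice. DESeq2 1.42.0 and limma 3.58.1 on log2(TPM + 1) were alternatives, with others given in the closing section. The steps were tested on simulated counts.

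The members and gene lists were chosen with earlier results of these data known. Named were each mitochondrial member, each member called, per complex the 2 nuclear members of highest TPM and the 2 of smallest p against WT, isoform groups, assembly factors, genes next to the minimum, and from each list the called members or else the 2 of highest CPM. The promoter examples, Cyc1, Esrrg, Ndufb4 and the mitochondrial ribosomal RNAs were chosen after their values were seen.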

Additional observations from a re-analysis of the deposited data

Results flagged for a closer look

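A pair of results stood out because the difference between mutants in their change from WT itself passed the test. For Cox6a2, h4 lay below h1 by a log2 difference of -0.73 (edgeR adjusted p = 0.0120), with all 3 h4 libraries below all 3 h1 libraries. For Atp5j2, h4 lay above h2 by 0.19 (edgeR adjusted p = 0.0426), with all 3 h4 libraries above all 3 h2 libraries.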

How the results depend on the processing

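Alternatives were other scalings, filters and tools, an Xist covariate, high-Xist libraries alone, 2 groups alone and each library left out. Of the count, median and share values, 378 kept their value within 1.5 times or 1 SD and 33 moved. Of the single-gene values, 464 kept their side of the threshold and direction, 25 lost a call, 18 gained one and 3 changed sign, all for mt-Atp8 in h4 against WT: -0.016 with the Xist covariate, -0.041 with high-Xist libraries alone and -0.037 without h4 replicate 2, in leave-outs of -0.037 to 0.103.

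The members called in h1 against WT were 1 with no low-count filter, and in h2 against WT 1 with no filter and 1 with DESeq2, mt-Nd2 each time. Leaving out libraries gave 0 to 2 in h2 (2, mt-Nd2 and mt-Atp6, without WT replicate 3, and 1 without h2 replicate 3). In h4 against WT, against 3 calls, there were 1 (Cox6a2) with mitochondrial genes left out of totals and fit, where they are no longer tested, 5 with no filter and 0 with high-Xist libraries alone, and 1 to 6 when a library was left out (6 without WT replicate 3 or h2 replicate 1, 5 without h2 replicate 3, and 1 without WT replicate 1 or 2 or h4 replicate 1 or 2). In h4 against h1, against 1 call, there were 2 without TMM, 2 with no filter, 2 with 2 groups alone, 0 with high-Xist libraries alone, 0 with DESeq2, which gave Cox6a2 no adjusted p, and 0 with a 5 CPM minimum, which removes Cox6a2. Leave-outs gave 0 (without h1 replicate 2 or h4 replicate 1) to 2 (without WT replicate 3 or h4 replicate 3). In h4 against h2 there were 2 with the Xist covariate (Cox8a and Atp5j2), 0 with high-Xist libraries alone, and 0 to 1 in leave-outs (0 without h2 replicate 2 or 3 or h4 replicate 1 or 2).

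The nuclear median in h2 against WT was -0.035 with high-Xist libraries alone, and in h4 against h2 it ran from -0.023 (without h2 replicate 2) to 0.044 in leave-outs. The mitochondrial median in h4 against WT stayed between 0.073 and 0.119 in the alternatives run, and in h1 between 0.004 and 0.074. The cause of each shift was not tested, beyond the smaller numbers of libraries or genes stated.

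The labels do not say whether replicate numbers of h1 and h2 pair mice. Correlations of deviations from group means were -0.147, -0.112 and 0.028 for same-numbered libraries, and -0.165 to 0.247 for the others. The highest joined h1 replicate 1 and h2 replicate 2, the high-Xist library of each group. With so few libraries, which also differ in Xist, these values cannot settle a pairing. With a replicate block, h2 against h1 had 0 members called, as without it. Depth limits Cox6a2, Cox4i2 and other members near 1 CPM most.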
